A study of Mus musculus with 28 samples.

Results

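The 10 genes described here belong to the perineuronal matrix and were followed in nascent RNA: the lecticans Acan, Bcan, Ncan and Vcan, the link proteins Hapln1 and Hapln4, the tenascin Tnr, and the proteases Adamts1, Adamts4 and Adamts8. They were taken by name, as 10 of the 22919 genes in each of the authors' 7 deposited comparison tables, and all 10 had a test there. They were selected on their changes in these 7 comparisons and their FPKM in control cultures, which were already known, so those values describe the genes and test nothing about them as a set.

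Nascent RNA was captured by Bru-seq, in which bromouridine is fed to living cells and the labelled RNA is pulled down and sequenced, so that reads come from transcription during the pulse. The cells were mouse forebrain cultures of CD1 embryos at embryonic day 18, with cortices and hippocampi of several embryos combined in each replicate at matched sex ratios, and the labels give neurons, astrocytes and oligodendrocyte precursor cells. Every culture, controls included, received a lentivirus on day in vitro 14, which carried a control hairpin (shCtrl) or one that targets Rai1 (shRai1), the gene of a chromatin-associated nuclear protein. On day 17 the cultures received water as vehicle, 1 µM TTX (tetrodotoxin, which blocks voltage-gated sodium channels and so silences firing) or 20 µM BIC (bicuculline, which blocks GABA-A receptors and so raises network activity) for 4 h, with 2 mM bromouridine in the last 20 min. There were 2 libraries of shCtrl with vehicle, 3 of shCtrl with TTX, 2 of shCtrl with BIC, and 3 of shRai1 with each treatment. By the labels, shCtrl with vehicle held replicates 1 and 2, shCtrl with BIC replicates 2 and 3, and every other group replicates 1 to 3. Replicate numbers are thus not balanced in comparisons that use shCtrl with vehicle or with BIC. Within an arm, TTX and BIC were compared with the same vehicle libraries.

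The perineuronal matrix is a condensed form of extracellular matrix that surrounds cell bodies and proximal dendrites, best known around fast-spiking inhibitory neurons. Lecticans are chondroitin sulfate proteoglycans that bind hyaluronan at one end. Link proteins hold that bond in place, tenascin-R cross-links lecticans at their other end, and Adamts proteases cut lectican core proteins. Neurons and glia both contribute: neurocan and brevican are made by astrocytes as well as neurons, and versican also by cells of the oligodendrocyte lineage.

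The values used here are summaries. The authors' tables give 1 pooled FPKM with lower and upper bounds per condition, and per comparison 1 log2 change with its standard error (SE), so no value per library can be shown and total counts per library are unknown here. Mean normalized counts ranged from 17.1 for Adamts4 to 5963 for Tnr, against a median of 107 over the 21192 genes with a test. Nascent Rai1 itself was not detectably lower in the shRai1 arm: the authors' deposited tables list log2 changes of 0.16 in vehicle (adjusted p = 0.357), -0.12 in TTX and 0.03 in BIC, and its interval is shared with Srebf1, so its value is uncertain. An shRNA acts on finished mRNA, so nascent Rai1 does not check the labels. Markers of the labelled cell types were present, with summed shCtrl vehicle FPKM of 639 over 10 neuron genes, 339 over 10 astrocyte genes and 131 over 6 oligodendrocyte precursor genes. Other cells were low, at 22.3 over 9 microglia genes and 4.23 over 11 vascular genes. The 10 inhibitory neuron genes ranged there from 0.207 FPKM for Pvalb, the parvalbumin gene, to 162 for Sst, the somatostatin gene. The potassium channel genes Kcnc1 and Kcnc2, also known for fast-spiking cells, stood at 49.4 and 7.09, and Pvalb was listed at 2.13 in TTX. In such mixed cultures a change in the number of cells of a type and a change in RNA per cell cannot be told apart.

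The sequence just upstream of the start is shown for the 3 genes that rose under BIC and fell under TTX in both arms, Acan, Vcan and Adamts1. RefSeq (GRCm38.p6) gave 250 bases before the start for 7 of the 10 genes, all but Hapln4, Adamts4 and Adamts8. Acan lies at chr7:79052976-79053225 on the plus strand, Vcan at chr13:89742513-89742762 on the minus strand and Adamts1 at chr16:85803114-85803363 on the minus strand. Capitals mark the letters TGACG, the first part of the cAMP response element, which was found in the Adamts1 sequence alone among the 7.
Acan: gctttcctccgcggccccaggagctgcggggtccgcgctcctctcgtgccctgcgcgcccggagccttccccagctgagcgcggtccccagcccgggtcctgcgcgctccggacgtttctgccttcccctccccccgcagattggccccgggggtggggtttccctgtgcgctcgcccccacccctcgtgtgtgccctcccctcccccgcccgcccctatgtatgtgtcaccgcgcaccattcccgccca
Vcan: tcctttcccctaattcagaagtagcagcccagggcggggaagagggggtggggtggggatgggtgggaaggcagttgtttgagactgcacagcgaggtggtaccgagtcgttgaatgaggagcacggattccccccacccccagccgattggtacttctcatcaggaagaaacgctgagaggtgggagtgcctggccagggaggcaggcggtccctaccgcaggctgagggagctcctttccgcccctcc
Adamts1: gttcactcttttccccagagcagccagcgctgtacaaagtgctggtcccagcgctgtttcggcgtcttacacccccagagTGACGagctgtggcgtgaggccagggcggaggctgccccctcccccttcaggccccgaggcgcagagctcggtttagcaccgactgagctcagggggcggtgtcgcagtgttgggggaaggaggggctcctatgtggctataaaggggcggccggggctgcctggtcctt
These windows were rich in G and C, at 74.4% for Acan, 62.4% for Vcan and 65.6% for Adamts1, against a median of 52.4% over 32851 RefSeq promoters cut in the same way. This was not particular to them, since Bcan stood at 62%. Ncan and Hapln1 stood at 54.4% and Tnr at 46.8%. Both strands were searched. TGACG was present in 17.8% of all promoters. The full element TGACGTCA (1.55% of all promoters), the AP-1 motif TGANTCA (6.75%), the Egr motif GCGTGGGCG (0.536%) and the CArG box of serum response (1.47%) were in none of the 7 windows, which says only that these letters are not there.

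In control cultures the lecticans covered a wide span of nascent RNA levels. FPKM is scaled to length, but it did not follow mean count over gene length. Hapln1 and Adamts1 had mean normalized counts of 706 and 694 over 71.2 and 9.29 kb, yet averaged 15.0 and 24.2 FPKM. The order of different genes on FPKM is therefore approximate, and the conditions of 1 gene are the safer comparison. Ncan (neurocan; mm9 chr8:72616984-72644743, an interval that also holds Mir7066) was the highest of the 10 genes, listed in the authors' deposited table at 56.8 FPKM in vehicle, 51.3 in TTX and 56.5 in BIC. Those 3 values differed by 1.11-fold and their bounds overlapped. Bcan (brevican; chr3:87791453-87804278) was listed at 22.4 FPKM in vehicle (bounds 16.8 to 27.9), 20.9 in TTX and 13.5 in BIC (bounds 9.69 to 17.3). BIC was the lowest condition for Bcan, and its bounds overlapped those of vehicle. Acan (aggrecan; chr7:86198369-86259985), the lectican that marks dense perineuronal nets, was listed at 4.34 FPKM in vehicle with bounds of 3.10 to 5.59, at 1.56 in TTX (0.944 to 2.17) and at 28.3 in BIC (21.9 to 34.6). No bounds of its 3 conditions overlapped, and BIC stood 18.2-fold above TTX, the widest span of the 10 genes. Vcan (versican; chr13:89794915-89882117) was listed at 3.95 FPKM in vehicle (bounds 2.51 to 5.39), at 2.11 in TTX (bounds 1.19 to 3.04) and at 16.0 in BIC (bounds 11.6 to 20.4). BIC was above the others, with a span of 7.57-fold, while the bounds of vehicle and TTX overlapped.

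Of the link proteins, Hapln1 (chr13:89680241-89751437) was listed near Bcan on FPKM in vehicle, at 21.9, and at 9.69 in TTX and 16.1 in BIC. Its low point was TTX, with bounds of 7.17 to 12.2 against 16.9 to 27.0 in vehicle. Hapln4 (chr8:72607428-72614761) was low throughout, at 2.58, 3.43 and 3.75 FPKM in vehicle, TTX and BIC with overlapping bounds. Tnr (tenascin-R; chr1:161453900-161855053, a gene of 401 kb) was listed at 7.15 FPKM in vehicle, 9.61 in TTX and 5.44 in BIC, an order opposite to that of Acan, and its bounds in TTX (7.14 to 12.1) and BIC (3.84 to 7.04) did not overlap.

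Among the proteases, Adamts1 (chr16:85794073-85803360), which cuts aggrecan and versican, was listed at 11.0 FPKM in vehicle (bounds 8.16 to 13.8), at 6.18 in TTX (bounds 4.38 to 7.99) and at 56.0 in BIC (bounds 43.4 to 68.5). The 3 ranges were apart, and in BIC Adamts1 stood level with Ncan. Adamts8 (chr9:30750148-30770443), another member of the family, was listed at 10.3 FPKM in vehicle, 2.36 in TTX and 14.2 in BIC. Its TTX bounds, 1.30 to 3.42, lay below those of both other conditions, which overlapped each other. Adamts4 (chr1:173180553-173190053), an aggrecanase, was the lowest of the 10 genes in every condition, at 1.22, 1.47 and 1.35 FPKM, with bounds that overlapped.

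On listed FPKM the order of the genes therefore differed between conditions. In vehicle it ran Ncan, Bcan, Hapln1, Adamts1, Adamts8, Tnr, Acan, Vcan, Hapln4, Adamts4, and among neighbours only Ncan from Bcan and Hapln1 from Adamts1 had bounds that did not overlap. In BIC it ran Ncan, Adamts1, Acan, Hapln1, Vcan, Adamts8, Bcan, Tnr, Hapln4, Adamts4. Acan moved from the seventh place to the third, and its bounds overlapped neither of its neighbours there. In TTX only Ncan and Bcan stood clear of the gene below them. The highest and lowest conditions had separate bounds for Acan, Vcan, Hapln1, Tnr, Adamts1 and Adamts8, and overlapping ones for the other members. The share of all genes with separate bounds was not taken here, so nothing is read from this about the members as a set.

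**Figure D1:**
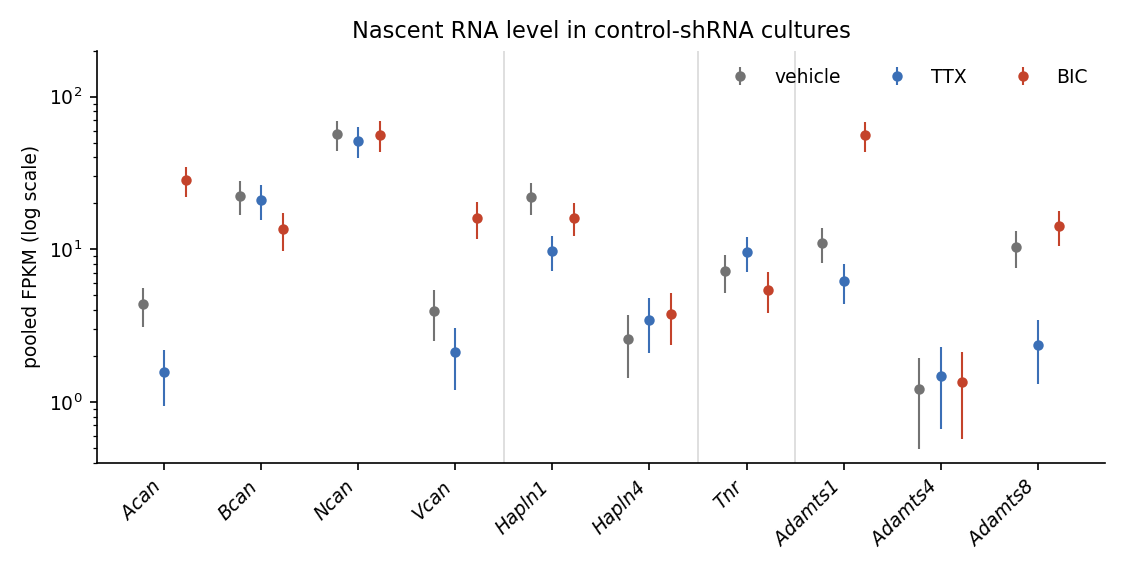
Pooled FPKM (log scale) of the 10 matrix genes in shCtrl cultures with vehicle, TTX or BIC; points are the authors' pooled values and bars their lower and upper bounds, with vertical lines between lecticans, link proteins, tenascin and proteases. Acan spans 1.56 to 28.3 FPKM and Adamts1 6.18 to 56.0, while Ncan stays between 51.3 and 56.8.

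Silencing with TTX lowered 6 of the 10 genes in shCtrl cultures and raised 1, by the authors' DESeq2 Wald test with a Benjamini-Hochberg adjusted p under 0.05, the threshold for every call below. Over all genes with an adjusted p the same table called 26.7%, of which 14.9% of genes were lower and 11.8% higher; nothing is read from the members' counts against this, since the genes were chosen with these values known. The median log2 change was -0.78 for the members and 0.00 for all genes, a description under the same limit.

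Of the lecticans, 3 fell. Acan fell by 1.94 on the log2 scale in the authors' deposited table (SE 0.15, 3.85-fold lower), Vcan by 1.47 (SE 0.21) and Ncan by 0.44 (SE 0.077). Bcan was listed at -0.02 (SE 0.11). Hapln1 fell by 1.81 in the same deposited table (SE 0.23), whereas Hapln4 was listed at 0.42 (SE 0.28; adjusted p = 0.285). Tnr was the gene that rose, by 0.49 in the authors' deposited table (SE 0.18; DESeq2 adjusted p = 0.0305). Adamts8 had the largest change of the members, a fall of 3.00 in the authors' deposited table (SE 0.16), and Adamts1 fell by 1.12 (SE 0.13). Adamts4 was listed at 0.27 (SE 0.35, a 95% interval of -0.42 to 0.97), an interval too wide to show a moderate change at its low count.

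The shRai1 arm, whose libraries are separate, gave the same 6 falls and no rise; the authors' deposited table for that arm called 30.5% of genes, 16.8% lower and 13.7% higher. The same rule for choosing the genes used this arm, so it is no independent repeat. Its listed log2 changes were -2.53 for Acan (SE 0.13), -0.94 for Vcan (SE 0.19), -0.30 for Ncan (SE 0.068), -1.72 for Hapln1 (SE 0.21), -1.05 for Adamts1 (SE 0.11) and -3.28 for Adamts8 (SE 0.15). Tnr was listed at 0.27 there (SE 0.16; DESeq2 adjusted p = 0.215). The members' median was -0.62, with 0.00 over all genes.

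Blocking inhibition with BIC split the genes by direction. In shCtrl cultures 3 of the 10 rose and 2 fell, where the authors' deposited table called 34.4% of all genes, 17.4% higher and 17% lower. In shRai1 cultures 4 rose and 2 fell, where 42.5% of genes were called, 21.3% in each direction. Acan, Vcan and Adamts1 rose in both arms, and Bcan and Tnr fell in both. The members' medians were 0.20 in shCtrl and -0.02 in shRai1, with all-gene medians of 0.00 in both.

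Acan rose by 3.01 log2 units in shCtrl in the authors' deposited table (SE 0.15, 8.06-fold) and by 2.42 in shRai1 (SE 0.12, 5.33-fold). For Vcan the deposited rises were 1.67 (SE 0.23) and 2.03 (SE 0.19), and for Adamts1 2.11 (SE 0.12) and 2.34 (SE 0.098). These 3 were also the genes whose FPKM bounds in BIC lay wholly above those of vehicle. Bcan fell by 0.64 in shCtrl in the authors' deposited table (SE 0.13) and by 0.26 in shRai1 (SE 0.10; DESeq2 adjusted p = 0.0269). Tnr fell by 0.88 (SE 0.20) and 0.98 (SE 0.17) in the same deposited tables, opposite in sign to its value under TTX. Ncan was listed at 0.09 in shCtrl (SE 0.086; adjusted p = 0.469) and rose by 0.23 in shRai1 (SE 0.067; DESeq2 adjusted p = 0.00257).

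Hapln1 and Adamts8, which fell under TTX, were not among the genes called under BIC. The authors' deposited tables list Hapln1 at -0.50 in shCtrl (SE 0.25; adjusted p = 0.115) and -0.19 in shRai1 (SE 0.21). Adamts8 was listed at 0.16 (SE 0.15; 95% interval -0.13 to 0.45) and 0.08 (SE 0.12; -0.15 to 0.31), with no called change in either arm. Hapln4 and Adamts4 were called in none of the 4 drug comparisons. Hapln4 was listed under BIC at 0.50 in shCtrl (SE 0.30) and -0.11 in shRai1 (SE 0.25).

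**Figure D2:**
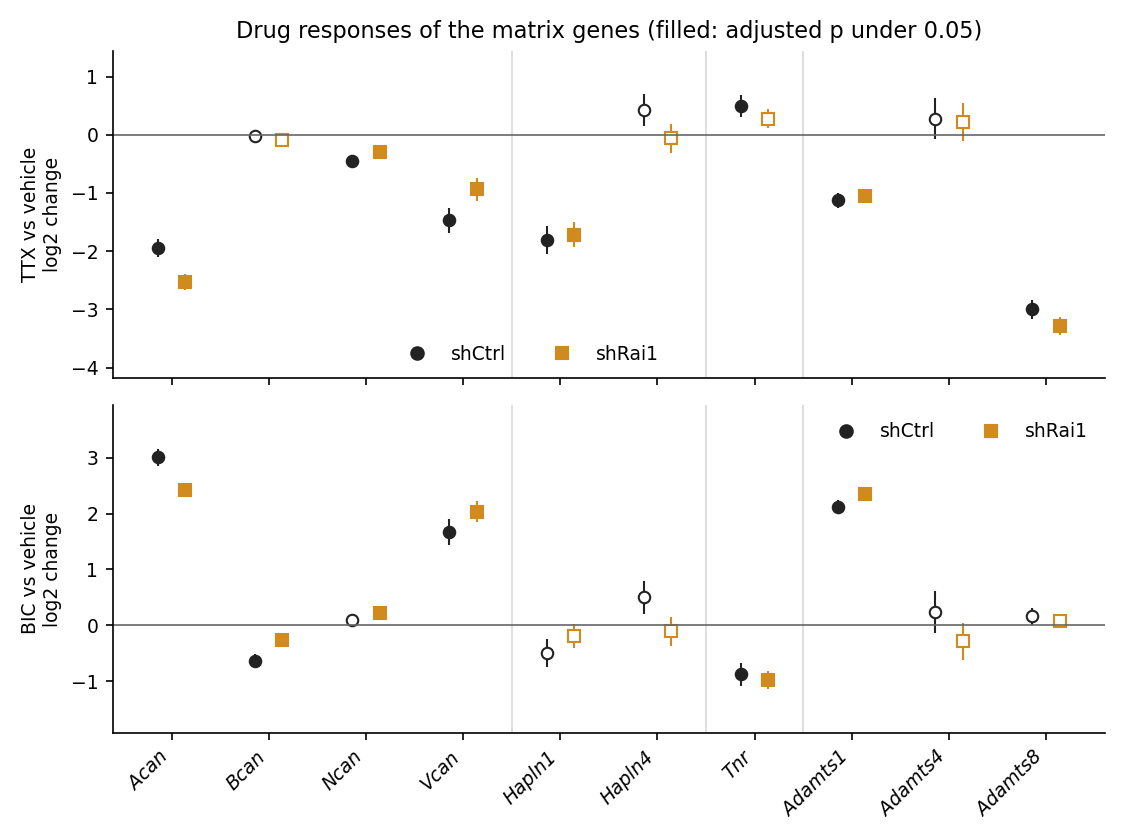
Log2 change against vehicle under TTX (upper) and BIC (lower) for the 10 genes in shCtrl (circles) and shRai1 (squares); bars are 1 standard error from the authors' deposited tables and filled symbols have an adjusted p under 0.05. Acan, Vcan and Adamts1 lie below 0 under TTX and above 0 under BIC, whereas Adamts8 and Hapln1 are low under TTX with open symbols under BIC.

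The pooled FPKM and the DESeq2 tables differ in size for some members. The log2 ratio of pooled FPKM in TTX against vehicle was -1.48 for Acan, -2.13 for Adamts8, -1.18 for Hapln1 and -0.15 for Ncan, each nearer to 0 than the deposited DESeq2 change. For BIC the FPKM ratios were 2.70 for Acan, 2.02 for Vcan, 2.35 for Adamts1, -0.39 for Tnr and -0.01 for Ncan. The genes called in shCtrl had FPKM ratios of the same sign as their DESeq2 change.

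Each lectican gene lies beside a link protein gene in the deposited mm9 intervals, and the listed responses of neighbours often differed. Acan is 1.93 kb from Hapln3, Ncan 2.22 kb from Hapln4, Bcan 21.4 kb from Hapln2 and Vcan 43.5 kb from Hapln1. Hapln3 was called in no comparison, and the authors' deposited tables list it at 0.04 under TTX (SE 0.32) and -0.18 under BIC (SE 0.34) in shCtrl, where Acan was listed at -1.94 and 3.01. The pooled FPKM of Hapln3 was 0.713 in vehicle, 0.857 in TTX and 2.66 in BIC, opposite in sign to the listed BIC value, so its response to BIC is uncertain. Hapln2 had no adjusted p in 4 of the 7 comparisons, 3 of them drug responses, so it could not be called there, and it was not called in the other 3. Vcan and Hapln1 both fell under TTX in both arms. Under BIC Vcan stood 2.17 log2 units above Hapln1 in shCtrl and 2.23 above it in shRai1, differences given without a test.

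**Figure D3:**
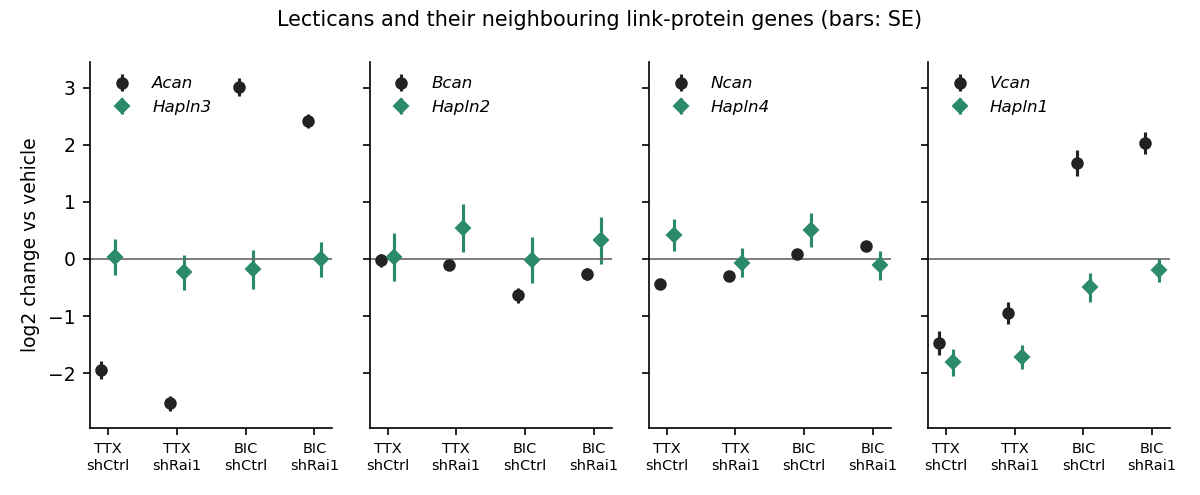
Log2 change against vehicle of each lectican gene (circles) and the link protein gene next to it (diamonds) in the 4 drug comparisons; bars are 1 standard error from the authors' deposited tables. Vcan and Hapln1 lie together under TTX (-1.47 and -1.81 in shCtrl) and apart under BIC (1.67 and -0.50), and under TTX in shCtrl Hapln3 is listed at 0.04 where Acan is at -1.94 (the BIC value of Hapln3 is uncertain, since its pooled FPKM has the opposite sign).

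In the knockdown comparisons few of these genes were called. In vehicle the authors' deposited table called 1 of the 9 members with an adjusted p, Acan, which was higher by 0.49 log2 units (SE 0.14, 1.41-fold; DESeq2 adjusted p = 0.0485). Over all genes that table called 0.857%, with 0.126% higher and 0.73% lower. This call was lost when the adjustment covered all genes with a p-value (adjusted p = 0.0685) or those that averaged 0.5 FPKM or more (adjusted p = 0.0546). Vcan was listed at -0.52 in vehicle (SE 0.21; DESeq2 adjusted p = 0.284) and Ncan at -0.17 (SE 0.077; adjusted p = 0.351). The other 7 members were listed between -0.20 and 0.27 in the authors' deposited table, and Adamts4 had no adjusted p there.

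In TTX and in BIC the authors' deposited knockdown tables called 0 of 10 members by DESeq2, where 0.0283% and 0.00944% of all genes were called. At an unadjusted p under 0.05 there was 1 member in each, Bcan, listed at -0.21 in TTX and 0.24 in BIC. The share of all genes at that unadjusted threshold was not taken, so nothing is read from this count. Acan was listed at -0.09 (SE 0.15; 95% interval -0.38 to 0.20) in TTX and -0.10 (SE 0.13; -0.36 to 0.16) in BIC. Across the 10 genes the listed values ran from -0.31 to 0.16 in TTX and from -0.34 to 0.24 in BIC. Their medians in vehicle, TTX and BIC were -0.08, -0.11 and -0.09, with all-gene medians of -0.01, 0.00 and 0.00.

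**Figure D4:**
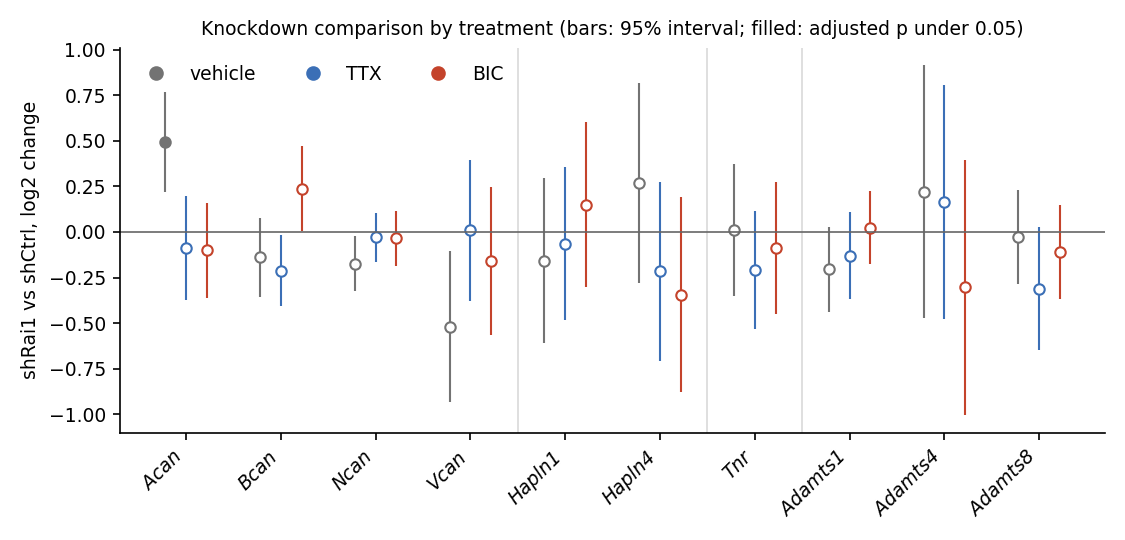
Log2 change of shRai1 against shCtrl for the 10 genes in vehicle, TTX and BIC; bars are 95% intervals computed from the standard errors in the authors' deposited tables and the filled symbol has an adjusted p under 0.05. Acan in vehicle, at 0.49, is the only filled symbol, and its values in TTX and BIC lie near 0.

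Whether the drug responses themselves differed between arms was tested on their difference, shRai1 minus shCtrl, with a two-sided Wald test adjusted over 18466 genes. None of the 10 members was called, against 0.926% of genes for TTX and 0.0217% for BIC. At an unadjusted p under 0.05 there was 1 member for TTX and 2 for BIC, counts without a share of all genes beside them, from which nothing is read. Acan had the smallest p for both drugs, at -0.58 for TTX (SE 0.20, Wald adjusted p = 0.170) and -0.60 for BIC (SE 0.19, Wald adjusted p = 1.00). Its listed fall under TTX was larger in shRai1 (-2.53 against -1.94 in shCtrl), and its listed rise under BIC was smaller (2.42 against 3.01). Both differences subtract the same vehicle libraries, in which Acan was listed 0.49 higher in shRai1, so the 2 differences are not independent of each other. Bcan stood at 0.38 for BIC (SE 0.16; Wald adjusted p = 1.00) and Vcan at 0.53 for TTX (SE 0.29; 95% interval -0.04 to 1.10).

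Markers of oligodendrocyte precursor cells also changed in these comparisons. In the knockdown in vehicle 4 of 6 were lower, with a median of -0.84 in the authors' deposited table, and the listed values of all 6 were below 0. In TTX 1 of 6 (Pdgfra) was higher in the knockdown and in BIC 1 of 6 (Pdgfra) was lower. In shCtrl 4 of 6 fell under TTX (median -0.73), in shRai1 5 of 6 rose (median 0.78), and the difference of the TTX responses was called for all 6 (median 1.37). Their summed FPKM in shCtrl was 131 in vehicle, 92.4 in TTX and 109 in BIC, with none at 0. The part of these cells in the Vcan, Ncan and Bcan values was not tested. Under BIC 1 of 6 precursor markers fell in shCtrl and 0 were called by DESeq2 in shRai1.

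Markers of other cell types moved in the same comparisons. In the knockdown in vehicle, where Acan was called, the neuron marker Rbfox3 was higher by 0.24 (DESeq2 adjusted p = 0.0494) and the astrocyte marker Aldoc was listed at -0.56 (DESeq2 adjusted p = 0.0392), each the 1 of 10 called in its list. As for Acan, these calls are not firm: with the adjustment over all genes with a p-value, DESeq2's p gave adjusted p = 0.0697 for Rbfox3 and 0.0554 for Aldoc, and over genes that averaged 0.5 FPKM or more 0.0556 and 0.0442. The 4 precursor markers called lower there passed under both. Under BIC 5 of 10 neuron markers rose and 3 fell in shCtrl, and 6 rose and 3 fell in shRai1. Under TTX 2 rose and 4 fell in shCtrl, and 1 rose and 3 fell in shRai1. Neuron markers summed in shCtrl to 823 FPKM in BIC against 639 in vehicle and 571 in TTX, but Nefl alone went from 59.6 in vehicle to 325 in BIC, and without it the sums were 498 in BIC, 579 in vehicle and 525 in TTX. The pooled FPKM in shCtrl went against the call for Stmn2, listed higher under BIC, and for Snap25, listed lower under TTX. Astrocyte markers summed to 339, 281 and 270 FPKM in vehicle, TTX and BIC, with Gjb6 at 0 in BIC. Without Aldoc, which stood at 100.2, 83.2 and 59.6, the sums were 239, 198 and 210. Under TTX 4 of 10 fell and 0 rose in shCtrl, whereas in shRai1 Aqp4 and Aldoc rose and Gfap fell. Under BIC in shCtrl Sox9 rose by 0.62 in the authors' deposited table, while Aqp4 was listed at -0.48 and Aldoc at -0.74, and in shRai1 Sox9 and Slc1a3 rose. Of 9 microglia markers, Cx3cr1 and Csf1r rose under BIC in shCtrl, by 0.92 and 1.11 in the authors' deposited table, and Cx3cr1 rose in shRai1 by 0.60. Microglia markers summed in shCtrl to 31.9 FPKM under BIC, against 22.3 in vehicle and 23.2 under TTX. The part of any of these cell types in the matrix gene values was not tested.

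The rest of the matrix pathway was read from 5 lists with 70 genes in all, and 0 were called by DESeq2 in a knockdown comparison or by the Wald test of a difference between arms. At an unadjusted p under 0.05 there were 7, 4 and 4 of 70 in the knockdown in vehicle, TTX and BIC, and 9 and 0 of 68 in the differences for TTX and BIC. Nothing is read from unadjusted counts of list genes here or below, since the share of all genes was not taken. In the list of other link proteins, tenascins and matrix receptors (11 genes), 4 rose and 2 fell under TTX in shCtrl, and 3 rose and 3 fell under BIC. In shRai1 1 rose and 1 fell under TTX, and 3 rose and 3 fell under BIC. For 2 of the 3 rises under BIC in shCtrl the sources differ in sign: Rtn4r went from 13.3 FPKM in vehicle to 8.15 in BIC and Rtn4rl2 from 31.1 to 26.8, which leaves Tnc as the rise seen in both. Tnc, the tenascin of reactive and developing tissue, fell under TTX by 0.43 (shCtrl) and 0.82 (shRai1) in the authors' deposited tables, and its rises under BIC were 2.07 and 2.13. Its directions were those of Acan and opposite to those of Tnr. Rtn4r, a Nogo receptor that also binds chondroitin sulfate, rose under TTX by 1.00 and 0.69 in the same deposited tables, and its relative Rtn4rl1 fell under BIC by 0.68 and 0.89.

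Hyaluronan is the backbone to which lecticans bind. Of 9 genes for its synthesis and turnover, 5 fell and 0 rose under TTX in shCtrl (list median -0.37), and 3 fell in shRai1. For Ugdh, one of the 5, the pooled FPKM was higher in TTX than in vehicle. Has3, a hyaluronan synthase, fell by 1.84 and 2.14 in the authors' deposited tables, while its pooled FPKM ratio was -0.50, so its size differs between sources. Under BIC 2 of the 9 rose and 0 fell in shCtrl, and 3 rose and 2 fell in shRai1. The falls there were Has3, by 0.70, and Hyal2, a hyaluronidase, by 0.59, in the authors' deposited table. Tmem2, a cell-surface hyaluronidase, rose by 1.43 and 1.37 in the deposited tables of the authors.

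Among 19 genes of chondroitin sulfate synthesis, 7 rose and 3 fell under BIC in each arm, and under TTX 2 rose and 2 fell in shCtrl and 1 rose and 1 fell in shRai1. Xylt2, one of the enzymes that start the chain, fell under TTX by 0.67 and 0.81. Under BIC Xylt2 rose in both arms, by 0.81 in the authors' deposited table for shCtrl. Chst12, a chondroitin sulfotransferase, rose under TTX by 1.01 and 0.78. Dsel, an epimerase-like gene, rose under BIC in both arms, by 0.80 in shRai1. Csgalnact1 was listed at -1.72 and -1.65 under BIC in the authors' deposited tables, but its interval is shared with 1700125H03Rik and its pooled FPKM was 1.80 in both vehicle and BIC, so that value is uncertain.

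The other 15 Adamts genes did not go one way. Under TTX 5 rose and 2 fell in each arm, and under BIC 1 rose and 6 fell in shCtrl and 4 rose and 7 fell in shRai1. One of the 6 falls, Adamts2, is uncertain, since its pooled FPKM was 10.1 in BIC against 8.30 in vehicle. Adamts15, which like Adamts1 cuts lecticans, fell under TTX in each arm, with -2.60 listed in both of the authors' deposited tables, and its pooled FPKM was 3.68 in TTX against 18.4 in vehicle and 13.3 in BIC. It was thus low under TTX as Adamts8 was, but unlike Adamts8 it was also called lower under BIC in both arms. Adamts2, a procollagen protease, rose under TTX by 1.60 and 1.28 in the same deposited tables, with an FPKM ratio of only 0.37. Under BIC Adamts16 fell by 1.46 and 1.38 in the authors' deposited tables, and Adamts20 rose in both arms, by 0.50 in shCtrl. Adamts13, the von Willebrand factor protease, rose by 1.01 under BIC in shRai1 in the same deposited tables.

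Of 16 matrix metalloproteases and their inhibitors, 0 were called under TTX in shCtrl by the authors' DESeq2 test (3 at an unadjusted p under 0.05), and 3 rose and 4 fell under BIC in each arm. Under TTX in shRai1 2 rose and 2 fell. Mmp17 fell under BIC by 0.72 and 0.69 in the authors' deposited tables. Mmp13, a collagenase, rose under BIC in both arms, by 1.74 in shRai1, and Mmp15 rose by 0.48 under TTX in shRai1. Timp1, a metalloprotease inhibitor, was listed at 2.05 under BIC in shCtrl and -1.14 under TTX in shRai1, in an interval shared with Araf, Mir5617 and Syn1, so its values are uncertain.

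**Figure D5:**
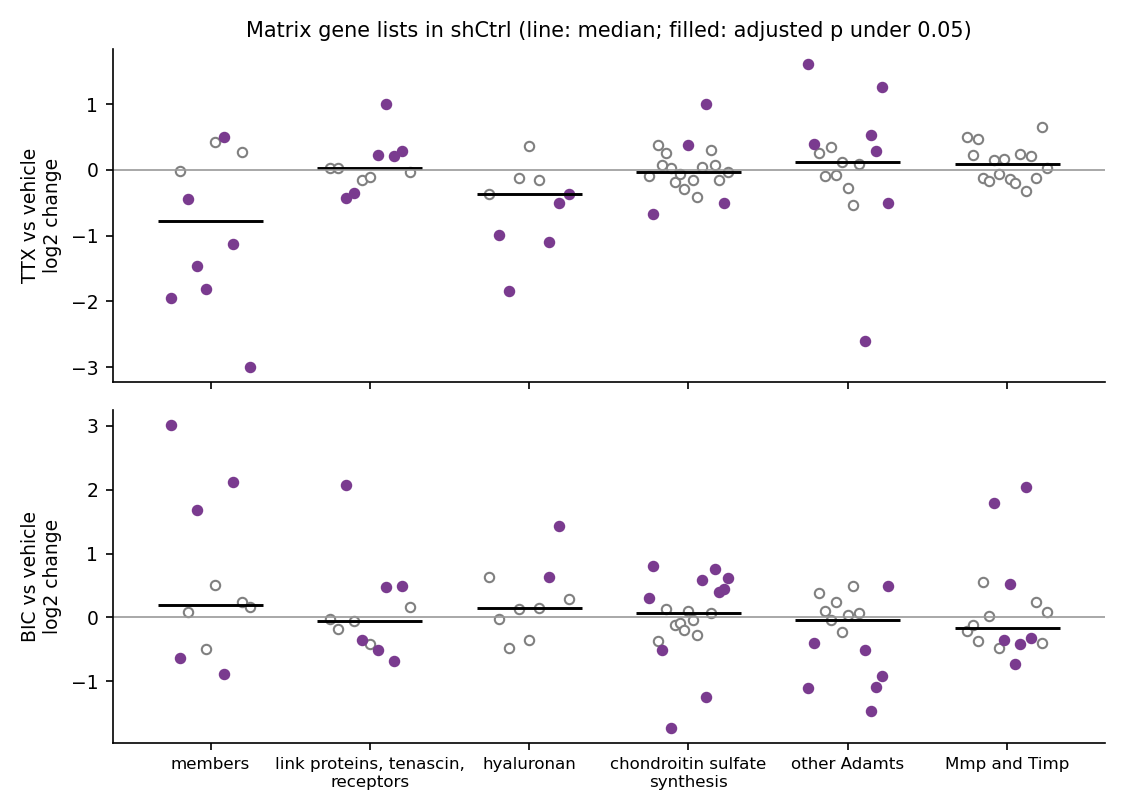
Log2 change against vehicle in shCtrl under TTX (upper) and BIC (lower) for the 10 members and the 5 matrix lists; each circle is a gene from the authors' deposited tables, filled where the adjusted p is under 0.05, and black lines are medians. The medians under TTX are -0.78 for the members, -0.37 for hyaluronan genes and 0.12 for the other Adamts genes. The members were chosen with these values known, so the medians describe the genes and are not a test between lists.

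Patterns were compared as the Euclidean distance over the 4 deposited drug responses, among the 16118 other genes that averaged 0.5 FPKM or more; comparisons of an arm share its vehicle libraries. The genes nearest to Acan were Pnoc, the nociceptin precursor (distance 1.03), and Pcsk1, a prohormone convertase (1.03), so no gene came within a distance of 1. Vcan had 1190002N15Rik (0.220) and Dusp1, a MAP kinase phosphatase (0.308). Adamts1 had Kitl, the Kit ligand (0.390), followed by Lancl3. Adamts8 had Gch1, a GTP cyclohydrolase, at 0.848 and Nr4a1, an activity-induced nuclear receptor, at 0.883. Hapln1 had Atp6ap1l (0.291). The remaining members, whose changes were smaller, had nearer genes. Distances were not scaled by size or SE, so large responses have fewer near genes, and how particular a pattern is was not tested. Tnr had Celf5 (0.0706) and Rora (0.0833), Ncan had Bloc1s6 (0.0467), and Bcan had Drap1 (0.0946) and Dohh (0.0998). Hapln4 had Otol1 (0.0505) and Lrrc8e (0.0580), and Adamts4 had Poll (0.111) and Lrg1 (0.114). These distances are below the SEs of the responses of Hapln4 and Adamts4, which were at least 0.25. Among the members themselves Vcan and Adamts1 were 0.647 apart, while Hapln4 and Adamts4, neither of them called, were the closest at 0.451. The most distant members were Acan and Tnr, at 6.36.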

How the data were processed

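The 16 Bru-seq libraries in 6 groups were used; 12 further samples, of RAI1 ChIP-seq, were left aside. Reads were 50 bp, single-end and stranded, per the labels' protocols. TopHat2 2.1.0, Bowtie2 2.2.6, DESeq2 and the build mm9 are named in the submitters' processing notes. The authors deposited 7 comparison tables with, per the file headers, a mean normalized count (a signal averaged over libraries), a log2 change with its standard error, a Wald score, and raw and adjusted p-values for 22919 genes, of which 1727 have a mean of 0. Per the file headers, the authors' other table holds for each condition a pooled FPKM and its lower and upper bound. Starts were read as 0-based and are printed 1-based.

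The deposited effects and errors were used as they stand. Gene names are missing from the vehicle knockdown table, and were restored by their unique mean count (20107 genes named, 1085 not). The names of the FPKM columns of the shRai1 arm did not follow the knockdown comparisons, so those columns entered only means over the 6 conditions. The difference of responses between arms was computed here from 2 comparisons with no shared library, with a standard error from the root of summed squares, a two-sided Wald test and Benjamini-Hochberg adjustment over the 18466 genes that averaged 0.1 FPKM or more. On simulated data this recovered 67% (TTX) and 70% (BIC) of 200 genes changed by 1 log2 unit, and 94.5% and 89.5% of those changed by 2. The simulation drew normal errors of the deposited sizes, so it checks the computation and not whether those errors hold for these libraries. The 95% intervals were computed from the standard errors and the normal distribution. Deposited errors were small even for a nearly absent gene: Kcnj8 averaged 0.00872 FPKM with an SE of 0.136 under TTX in shCtrl. Intervals at low counts may therefore be too narrow. The tools were Python 3.11.15, numpy 2.4.6, pandas 2.3.3, scipy 1.17.1 and matplotlib 3.10.9. With no values per library, precision rests on the deposited errors, which come from 2 or 3 replicates that each combined several embryos.

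Named genes were the 10 members and Rai1. Of each of the 5 matrix lists, the largest rise and fall called in each drug response, among genes averaging 0.5 FPKM or more, were named. For each member, the 2 genes nearest in the 4 drug responses were named, except where one is not reported here. Neighbouring link protein genes and marker genes were added for the results they touch. The members and lists were chosen with earlier results of these data known. The 7 marker lists were neuron, inhibitory neuron, astrocyte, oligodendrocyte precursor, oligodendrocyte, microglia and vascular genes. Alternatives were other thresholds, other sets of genes for the adjustment, removal of the median change and errors from the knockdown tables. Protein sequences were not used here.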

Additional observations from a re-analysis of the deposited data

Results flagged for a closer look

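No member of the matrix set met a rule for a closer look, and 7 marker genes did, because the test of the difference between arms called their TTX response. The difference, shRai1 minus shCtrl in log2 units, was 1.86 for Pdgfra, 1.16 for Cspg4, 0.76 for Olig1, 1.10 for Olig2, 1.59 for Sox10 and 2.41 for Gpr17, which are 6 of 6 oligodendrocyte precursor markers. Wald adjusted p-values for these 6 ran from 2.65e-22 for Pdgfra to 0.00952 for Gpr17. Pdgfra, the receptor that defines these cells, was listed in the authors' deposited tables at -0.76 under TTX in shCtrl and 1.10 in shRai1, and at -1.37 for the knockdown in vehicle. The intervals of Pdgfra and Gpr17 each hold another listed gene, Mir7025 and Lims2, so these values are less certain than the other 4. The neuron marker Rbfox3 differed by -0.40 (Wald adjusted p = 0.00491), with a rise of 0.42 in shCtrl and a listed value of 0.03 in shRai1 (DESeq2 adjusted p = 0.808) in the authors' deposited tables. The difference subtracts the vehicle libraries of both arms, 2 in shCtrl and 3 in shRai1, and no value without a given library could be computed.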

How the results depend on the processing

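Of the 9 counts of called members, 8 stayed within 1.5 times of the reported value under every alternative run. The exception was the knockdown in vehicle, where 1 member (Acan) was called: the count was 0 at an adjusted p under 0.01, 0 when adjusted over those averaging 0.5 FPKM or more (adjusted p = 0.0546) and 0 with the adjustment over all genes with a p-value (adjusted p = 0.0685). It was 1 at a threshold of 0.1 and with the median change removed. Acan's adjusted p for that comparison ranged from 0.0469 to 0.0685 over these alternatives. At 0.01, Tnr under TTX in shCtrl (adjusted p = 0.0305) and Bcan under BIC in shRai1 (adjusted p = 0.0269) were lost too. No sign reversed, as these alternatives keep the deposited log2 change or shift it by the all-gene median.

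No paired analysis was possible because the files used here hold only summaries per comparison and per condition, with no value per library. Leaving out each replicate was not run for the same reason. With 2 libraries of shCtrl in vehicle and in BIC, how far 1 library decides a value is therefore unknown. Depth per library is unknown as well, and Adamts4 and Hapln4, with mean counts of 17.1 and 39.6, have the widest standard errors of the members.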

Other observations

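Inhibitory neuron markers, the cells around which perineuronal nets are best known, were read beside the matrix genes. In shCtrl cultures 3 of 10 rose and 3 fell under BIC in the authors' deposited tables, and 1 was listed higher and 3 fell under TTX. The 1 listed higher was Dlx1, at 0.46 (DESeq2 adjusted p 0.0105), but its pooled FPKM was 71.7 in vehicle and 17.6 in TTX, so its direction is uncertain. In shRai1 5 rose and 4 fell under BIC, and 0 rose and 5 fell under TTX. Gad1, Gad2 and Slc32a1, the genes of GABA synthesis and vesicular loading, rose under BIC in both arms. Gad1 and Gad2 fell under TTX in both arms. Pvalb was listed at 0.207 FPKM in shCtrl with vehicle and 2.13 with TTX and was called in no comparison of the authors' deposited tables.

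Oligodendrocyte markers summed to 78.3, 90.7 and 100.2 FPKM in shCtrl with vehicle, TTX and BIC, with Mag listed at 0 in BIC, and 1 of 7, Mbp, was called under each drug in that arm; in shRai1 Cnp rose under TTX and Mbp was called lower under BIC. Mbp, a myelin protein gene, was listed at 0.49 under TTX and -0.49 under BIC in the authors' deposited tables, but its pooled FPKM was 18.5 in vehicle, 22.6 in TTX and 26.2 in BIC, so its direction under BIC is uncertain. Vascular markers summed to between 4.23 and 6.25 FPKM in the shCtrl conditions, with Cldn5 listed at 0 in TTX and BIC and Kcnj8 at 0 in vehicle and BIC. Of the 11, Flt1 rose under BIC in shCtrl, and in shRai1 Pecam1 rose under TTX and Pdgfrb fell under BIC, in the authors' deposited tables.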
